A study of Mus musculus with 12 samples.

Results

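The Fos and Jun genes of the AP-1 family were followed in neurons of ventral hippocampus (vHPC) that project to nucleus accumbens (NAc). The family was taken by name as 8 genes, Fos, Fosb, Fosl1, Fosl2, Jun, Junb, Jund and Atf3, of 37310 genes counted, and 7 of the 8 had at least 1 count in a library. Translating ribosome affinity purification (TRAP) collects the mRNA on ribosomes that carry a GFP-tagged L10a protein, and input is RNA of the same tissue before purification. All mice carried the Cre-dependent Rosa26 eGFP-L10a gene and received retrograde HSV-hEf1α-Cre in NAc, and vHPC was collected 3 weeks later. FosB KO mice had in addition floxed FosB alleles (FosB fl/fl), and WT mice were non-floxed GFP-L10a littermates, of strain C57BL/6 by the labels. Cre came only from the virus, whose promoter is not limited to 1 cell type, so the KO covers infected neurons with axons in NAc. TRAP is meant to enrich mRNA of these neurons, and markers of other cells, given below, were still counted in every TRAP library. Input also holds RNA of cells that were not infected. The age of these mice was not given in the sources used here. Each genotype had 3 pools of mice, with 3 mice per pool in the labels, with 1 TRAP and 1 input library from each, which makes 12 libraries in 4 groups. Pools are numbered WT 1, 2 and 3 and KO 2, 3 and 4, and a shared number does not mean shared mice.

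AP-1 is a dimer of leucine zipper proteins. Fos proteins bind DNA only together with a partner, usually a Jun protein, whereas Jun proteins also pair with each other. Fos, Fosb, Jun, Junb and Atf3 are immediate early genes, transcribed within minutes of neuronal activity, and Jund is kept at a steadier level. Fosb also gives ΔFosB by splicing, a truncated and long-lived protein that accumulates with repeated activity and that forms dimers with JunD. The counts cover the whole Fosb gene, which has 1 transcript in the annotation, so FosB and ΔFosB mRNA were not separated.

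Fos, Fosb, Fosl1, Fosl2 and Atf3 have 4 exons each, and Jun, Junb and Jund have 1. In each of the 4 Fos genes, the third exon was 108 bases long and coding. The length is not particular to the Fos genes, since 8.74% of 19546 protein-coding genes with more than 1 exon have an exon of 108 bases. These exons code for part of the basic region and zipper and are shown for the bases that the 4 have in common. They are given 5′ to 3′ on the coding strand of mm9, with capitals at the 62 positions where all 4 genes have the same base.
Fos, chr12:86816542-86816649, plus strand: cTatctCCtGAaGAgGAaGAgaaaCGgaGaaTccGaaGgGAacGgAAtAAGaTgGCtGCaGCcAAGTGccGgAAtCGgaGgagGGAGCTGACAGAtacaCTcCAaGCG
Fosb, chr7:19891908-19892015, minus strand: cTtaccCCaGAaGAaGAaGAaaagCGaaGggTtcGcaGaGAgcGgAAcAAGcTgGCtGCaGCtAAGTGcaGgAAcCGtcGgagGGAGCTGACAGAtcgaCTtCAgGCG
Fosl1, chr19:5454413-5454520, plus strand: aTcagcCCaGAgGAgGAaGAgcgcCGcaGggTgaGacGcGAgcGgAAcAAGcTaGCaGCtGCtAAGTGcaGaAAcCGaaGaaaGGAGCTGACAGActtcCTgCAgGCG
Fosl2, chr5:32452794-32452901, plus strand: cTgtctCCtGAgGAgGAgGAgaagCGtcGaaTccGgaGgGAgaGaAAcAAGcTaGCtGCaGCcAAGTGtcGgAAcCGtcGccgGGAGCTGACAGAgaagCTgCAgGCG
Fosb was identical to Fos at 83 of 108 bases (76.9%) and to Fosl1 and Fosl2 at 80 each (74.1%). Fosl1 shared the fewest bases with Fos and with Fosl2, at 72 each (66.7%).

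In the Jun genes the most similar stretch of 108 coding bases, chosen as the window with the most bases shared by all 3, had 75 such bases, printed in capitals.
Jun, chr4:94717123-94717230, minus strand: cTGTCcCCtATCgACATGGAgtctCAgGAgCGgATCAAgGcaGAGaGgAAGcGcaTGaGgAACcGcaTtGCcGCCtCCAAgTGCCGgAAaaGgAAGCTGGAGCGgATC
Junb, chr8:87501459-87501566, minus strand: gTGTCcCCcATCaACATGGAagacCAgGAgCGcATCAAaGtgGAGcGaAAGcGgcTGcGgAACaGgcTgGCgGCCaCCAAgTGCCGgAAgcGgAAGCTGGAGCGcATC
Jund, chr8:73223710-73223817, plus strand: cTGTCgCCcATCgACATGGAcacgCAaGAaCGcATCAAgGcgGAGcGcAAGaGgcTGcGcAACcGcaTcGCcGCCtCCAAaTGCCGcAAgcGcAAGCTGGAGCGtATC
Between pairs, 76.9% to 78.7% of the bases were identical. Stretches of 75 bases, taken from the exons, were nearly all unique. No such stretch of Fos, Fosb, Fosl1, Fosl2, Jun, Junb or Atf3 exons had another place in mm9 within 2 mismatches, and 4.46% of those of Jund did.

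Libraries held 3416030 to 5614089 counts on genes, and levels are in CPM, which divides a gene's count by the TMM-scaled size of the library. Before scaling, 3 counts correspond to 0.534 to 0.878 CPM, a floor that covers counting error only. Glutamate neuron markers were high in every library, with summed levels of 4662 to 5172 CPM in TRAP and 3895 to 4482 CPM in input. The 6 astrocyte markers summed to 93.1 to 129 CPM in TRAP and 787 to 947 CPM in input, and the 6 microglia markers to 3.06 to 8.91 CPM and 53.5 to 101 CPM. The 6 oligodendrocyte markers summed to 150 to 195 CPM in TRAP and 606 to 997 CPM in input, and the 6 endothelial markers to 0.977 to 3.64 CPM and 6.70 to 19.5 CPM. KO TRAP 2 stood apart from its group in GABA neuron markers. The 6 markers summed to 566 CPM there, to 140 and 147 CPM in the other KO TRAP libraries, to 224 to 323 CPM in WT TRAP and to 643 to 762 CPM in input. Gad2, which makes GABA, was at 187 CPM in KO TRAP 2 and at 27.6 to 49.4 CPM in the other 5 TRAP libraries. Log2 fold changes of members between KO and WT in TRAP are therefore given with and without KO pool 2, as are correlations of named pairs of members. The KO sums, shares and input changes below include it. The part of GABA neurons in the results was not tested.

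Levels per kb of exon put Jun and Junb on top of the family in TRAP libraries. Jun stood at 80.5 ± 5.25 CPM per kb (SD, n = 3) in WT TRAP and Junb at 79.3 ± 4.58, and their ranges overlapped. Jund followed at 36.8 ± 3.59, Fosl2 at 19.1 ± 4.11, Fos at 15.8 ± 2.23 and Fosb at 10.4 ± 1.78 CPM per kb. The ranges of Fosl2 and Fos overlapped, and those of the other neighbours in this order did not. Atf3 was far lower, at 1.83 ± 1.44 CPM per kb, and Fosl1 had no count. In WT input, Jun was at 54.7 ± 2.86, Junb at 37.0 ± 5.45, Jund at 29.8 ± 2.77, Fosl2 at 14.8 ± 1.71, Fos at 9.36 ± 2.64 and Fosb at 6.85 ± 1.10 CPM per kb (SD, n = 3). There the ranges of Junb and Jund overlapped, as did those of Fos and Fosb. The KO groups had the same order, except that Junb and Jun changed places in KO TRAP within overlapping ranges. With the longest transcript as the length, Fos also stood above Fosl2 in KO TRAP, within overlapping ranges.

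The 8 members together summed to 244 ± 4.09 CPM per kb in WT TRAP and 153 ± 13.5 in WT input (SD, n = 3). The sums for KO were 247 ± 16.8 and 151 ± 3.23. Junb made up 32.6% ± 2.32 of this sum in WT TRAP and 24.2% ± 1.68 in WT input, while Jund made up 15.1% ± 1.31 and 19.5% ± 0.182. Fosb held 4.29% ± 0.775 of the sum in WT TRAP and 2.49% ± 0.411 in KO TRAP, and 4.54% ± 1.02 in WT input and 2.83% ± 0.164 in KO input.

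**Figure D1:**
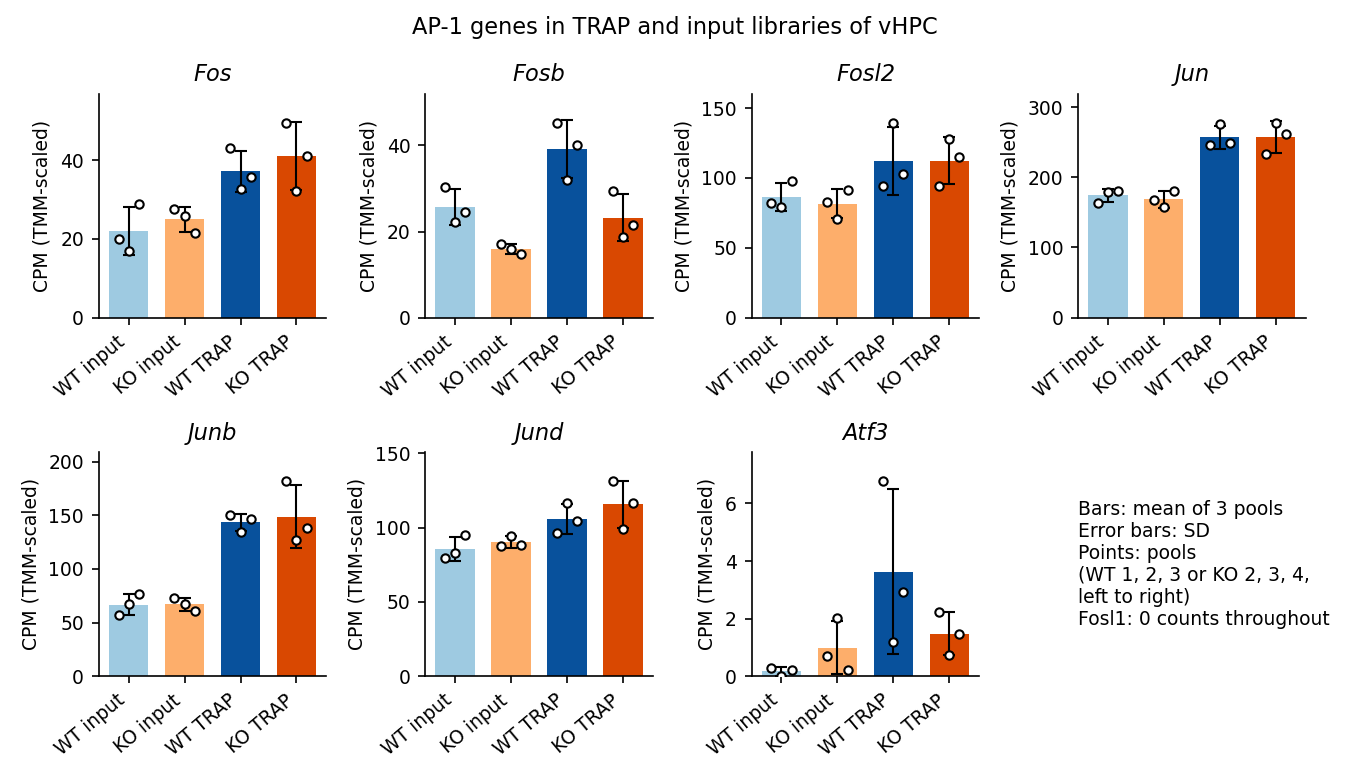
Levels of 7 AP-1 genes in CPM (vertical axes, linear from 0) in the 4 groups, with bars for the mean of 3 pools, error bars for the SD and points for single pools. Fosb stands lower in KO than in WT in both kinds of library, and Junb is more than doubled from input to TRAP.

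Fosb, on chromosome 7 of mm9 from 19888070 to 19895394 on the minus strand (ENSMUSG00000003545.2), was the targeted gene. WT TRAP 1, 2 and 3 had 45.3, 32.0 and 40.2 CPM, from 254, 136 and 151 counts. In KO TRAP 2, 3 and 4 it stood at 29.4, 18.8 and 21.5 CPM, from 105, 77 and 88 counts. All 3 KO TRAP libraries were below all 3 WT TRAP libraries, with KO TRAP 2 and WT TRAP 2 nearest to each other. In input it stood at 30.3, 22.3 and 24.5 CPM in WT and at 17.1, 16.0 and 14.9 CPM in KO, again without overlap. Every KO library was below every WT library for 6.12% of genes tested in TRAP and 4.18% in input, so that lack of overlap was not rare by itself. The fitted KO level of Fosb was 59.0% of WT in TRAP (95% interval 43.8% to 79.5%) and 62.5% of WT in input (45.7% to 85.6%).

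The difference of Fosb did not pass adjustment over all genes in either kind of library. Its log2 fold change, KO against WT, was -0.76 in TRAP (SE 0.21, adjusted p = 0.337, quasi-likelihood fit of edgeR, Benjamini-Hochberg) and -0.68 in input (SE 0.22, adjusted p = 1.00). By unadjusted p it ranked 44 of 11727 genes in TRAP and 47 of 12816 in input. Exact two-sided permutation tests of log2(CPM + 0.5) gave p = 0.10 in both, the smallest that 3 against 3 allows. The change did not differ detectably between TRAP and input, with a log2 difference of -0.08 and a 95% interval of -0.71 to 0.54. Without KO pool 2, the change in TRAP was -0.96 (adjusted p = 0.191, edgeR), and with the other pools left out in turn it was no smaller than -0.62. By the study's description Cre removes exons 2 and 3, which are 321 and 108 of the 3751 exon bases if numbered as in the annotation, exon 3 being the Fosb sequence printed above. Exons 1 and 4, of 740 and 2582 bases, are left in the gene, and the counts do not tell their reads from those of an intact transcript. In bulk samples, a lower level in fewer cells and less RNA per cell cannot be told apart.

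The other members showed no called difference between genotypes. None of the 6 members tested was called in TRAP, where 0.0341% of all genes were called lower in KO and 0.0341% higher. None was called in input, where 0.0234% were lower and 0.0078% higher, and Fosb was the only one with an unadjusted p under 0.05, in TRAP (6.05% of all genes) and in input (2.89%). DESeq2 called none of them either. Fosl1 and Atf3 did not pass the filter on low counts. The median log2 fold change of the 6 was 0.03 in TRAP and -0.02 in input, beside 0.00 over all genes in both. No member was called for a difference between TRAP and input in the effect of genotype (0.00757% of all genes), and 0 of 6 had an unadjusted p under 0.05 in edgeR, beside 2.71% of all genes, a share at which 0 of 6 says little.

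Fos (ENSMUSG00000021250.7), the first Fos gene to respond to activity, had 43.0, 32.8 and 35.7 CPM in WT TRAP, beside 49.5, 32.3 and 41.1 CPM in KO TRAP. KO TRAP 2 was the highest of these, and the groups overlapped. Its log2 fold change was 0.13 in TRAP (95% interval -0.25 to 0.52), and -0.02 without KO pool 2. In input it stood at 20.1, 17.0 and 29.0 CPM in WT and 27.6, 25.8 and 21.4 CPM in KO, with a log2 fold change of 0.18 (-0.29 to 0.65).

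Fosl2 (ENSMUSG00000029135.9), which encodes Fra-2, had 94.3, 139 and 103 CPM in WT TRAP, beside 94.2, 128 and 115 CPM in KO TRAP. The pools spread widely within each genotype, and the ranges of the genotypes covered nearly the same span. Its log2 fold change was 0.01 in TRAP (95% interval -0.30 to 0.31), and 0.12 without KO pool 2, and it was -0.08 in input (-0.38 to 0.22). In input it stood at 82.4, 79.2 and 97.9 CPM in WT and 82.7, 70.8 and 91.6 CPM in KO.

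Jun (ENSMUSG00000052684.3) encodes c-Jun, the target of the JNK kinases. WT TRAP libraries had 246, 276 and 248 CPM and KO TRAP libraries 233, 278 and 262 CPM. In input it stood at 164, 179 and 180 CPM in WT and at 167, 157 and 181 CPM in KO. The groups overlapped in both, with log2 fold changes of 0.01 in TRAP (95% interval -0.20 to 0.21), or 0.08 without KO pool 2, and -0.05 in input (-0.28 to 0.18). Of its exon bases, 232 overlap the antisense gene BC042782, which had at most 10 counts in a library.

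Junb (ENSMUSG00000052837.4) encodes a Jun protein that activates less strongly than c-Jun. WT TRAP libraries had 150, 134 and 146 CPM and KO TRAP libraries 182, 127 and 138 CPM. KO TRAP 2 was above the WT range, KO TRAP 3 below it and KO TRAP 4 inside it. Its log2 fold change was 0.05 in TRAP (95% interval -0.21 to 0.31), and -0.11 without KO pool 2 (-0.37 to 0.15). In input it stood at 56.8, 67.1 and 76.5 CPM in WT and 73.2, 67.2 and 60.8 CPM in KO, a log2 fold change of 0.00 (-0.31 to 0.32).

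Jund (ENSMUSG00000071076.4), the partner of ΔFosB, had 96.1, 117 and 105 CPM in WT TRAP, beside 131, 99.2 and 117 CPM in KO TRAP. KO TRAP 2 was again highest and the ranges overlapped. Its log2 fold change was 0.13 in TRAP (95% interval -0.13 to 0.39), and 0.03 without KO pool 2, and it was 0.07 in input (-0.20 to 0.35). In input it stood at 79.8, 82.7 and 94.8 CPM in WT and 87.7, 94.6 and 88.1 CPM in KO. Of the Jund exon bases, 543 overlap the antisense gene Gm11175, which had 0 counts in every library. If reads were counted without strand, those on the shared bases would have been set aside, and Jund levels would be too low.

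For Fos, Fosl2, Jun, Junb and Jund, the intervals in TRAP reached no lower than 0.812 and no higher than 1.43 times WT. These are the outermost limits over the 5 genes, and the interval of each gene is narrower.

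**Figure D2:**
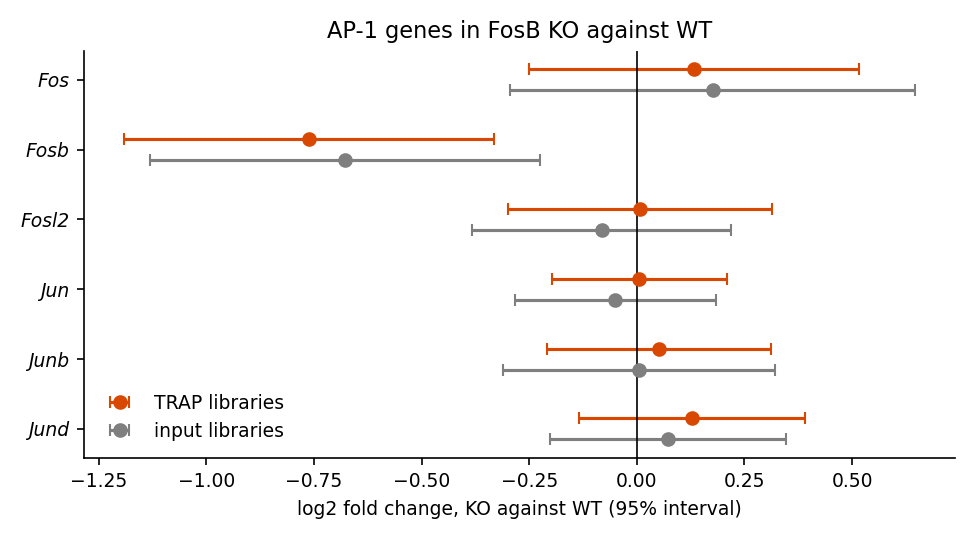
Log2 fold changes of 6 AP-1 genes between FosB KO and WT (horizontal axis) in TRAP and input libraries, with 95% intervals from edgeR and 3 pools per genotype. Only the Fosb intervals lie wholly below 0, at -1.19 to -0.33 in TRAP and -1.13 to -0.23 in input.

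The ratio of Fosb to other members of the same library was compared next, a choice made after the values were seen. The ratio of Fosb to Fos, per exon length, was 0.661, 0.614 and 0.707 in WT TRAP 1, 2 and 3. It was 0.372, 0.366 and 0.328 in KO TRAP 2, 3 and 4. KO TRAP 2 was not set apart by this ratio, although it had the highest level of both genes among the KO TRAP libraries. The log2 difference between genotypes was -0.89, beside SDs between pools of 0.10 in WT and 0.10 in KO, and is given with no test because the ratio was chosen on these values. The ratio of Fosb to Junb was 0.145, 0.115 and 0.132 in WT TRAP and 0.0778, 0.0716 and 0.0752 in KO TRAP, again without overlap. In input, the ratio of Fosb to Fos was 0.945, 0.822 and 0.531 in WT and 0.389, 0.389 and 0.435 in KO, with WT spread far more widely than KO. The ratio of Fosb to Jund did not overlap between genotypes in TRAP either, whereas those of Fosb to Jun and of Fosb to Fosl2 did.

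**Figure D3:**
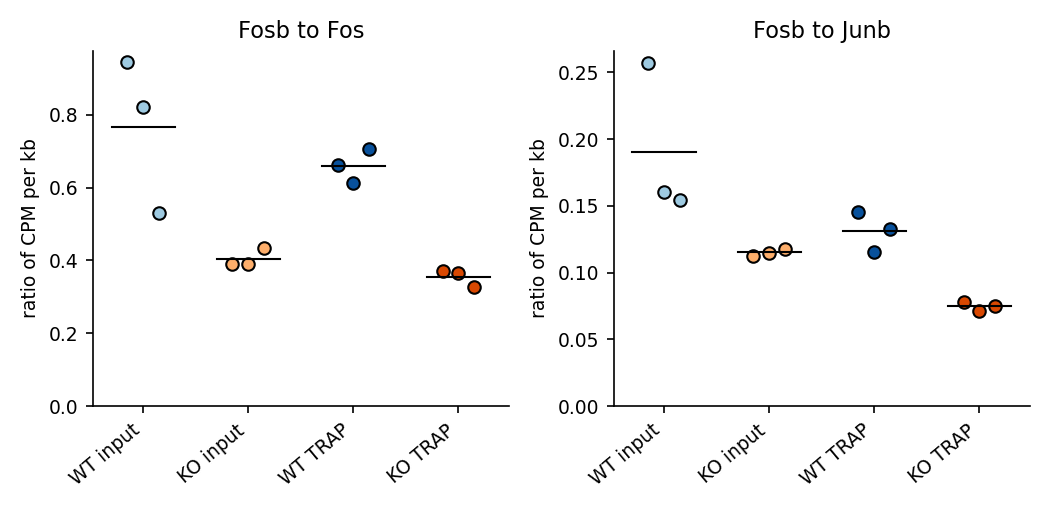
Ratio of Fosb to Fos (left) and of Fosb to Junb (right) in every library, each as CPM per kb, with lines for the mean of 3 pools. In TRAP the KO libraries lie at 0.328 to 0.372 for Fosb to Fos, below the WT libraries at 0.614 to 0.707.

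TRAP against input asks which of these mRNAs were richer on the ribosomes of NAc-projecting neurons than in the tissue as a whole. All 6 members tested were higher in TRAP over both genotypes and were called, beside 20.1% of all genes. Each was higher in 6 of 6 pools, which held for 18.2% of all genes (exact two-sided sign-flip permutation test, p = 0.031 for each, the smallest that 6 pools allow). Their median log2 ratio was 0.58, and that of all genes was -0.01. Markers of glutamate neurons moved the same way, with 4 of 6 called higher and a median log2 ratio of 0.25. Markers of GABA neurons moved the other way, with 5 of 6 called lower and a median of -1.69. In WT alone 5 of 6 were called lower, and in KO alone, with KO pool 2, 2 of 6. Of the astrocyte and oligodendrocyte markers, 6 of 6 were called lower in each list, with medians of -3.22 and -3.41. In the fit of TRAP libraries alone, 4 of 6 oligodendrocyte and 5 of 6 GABA neuron markers passed the filter. The others, the microglia markers and the 1 endothelial marker tested could enter only through input libraries, where they are high. Their direction follows from the filter, so no fold is given for microglia and endothelium. The part of these cells in the ratios of the AP-1 genes was not tested.

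Junb had the largest ratio of the 6. Its log2 ratio was 1.39, 0.99 and 0.93 in WT pools 1, 2 and 3 and 1.31, 0.91 and 1.18 in KO pools 2, 3 and 4. The fitted ratio was 1.12 (SE 0.10, adjusted p = 1.66e-10, edgeR), or 2.18 times input with a 95% interval of 1.90 to 2.50, which ranked 100 of 13214 genes. No input library was above 76.5 CPM and no TRAP library was below 127 CPM. Within pools, the ratio of Junb exceeded that of each of the other 5 members in 6 of 6 pools, with a mean excess of 0.39 over Fos to 0.79 over Jund on the log2 scale. Junb was singled out after the values were seen, so this is a description with no test.

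Fos had a fitted log2 ratio of 0.73 (SE 0.15, adjusted p = 0.000161, edgeR). Its pools split, with ratios of 1.08, 0.93, 0.83 and 0.93 in WT 1, WT 2, KO 2 and KO 4 but 0.30 and 0.32 in WT 3 and KO 3. Jun had a ratio of 0.59 (SE 0.07, adjusted p = 1.05e-07, edgeR) and the narrowest spread, from 0.46 to 0.82 over pools. Fosb had a ratio of 0.58 (SE 0.15, adjusted p = 0.00222, edgeR) and ran from 0.23 in KO 3 to 0.76 in KO 2. Fosl2 and Jund had the smallest ratios. Fosl2 was at 0.42 (SE 0.10, adjusted p = 0.00179, edgeR), with 0.81 and 0.85 in WT 2 and KO 3 and 0.07 to 0.32 in the other 4 pools. Jund was at 0.33 (SE 0.09, adjusted p = 0.00347, edgeR) and ran from 0.07 to 0.58. All 6 calls over both genotypes held without any 1 pool, KO pool 2 included, and under every alternative tried.

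Within 1 genotype the smaller ratios did not all pass. In WT, 4 members were called (11.8% of all genes), and Fosl2 and Jund were not, with log2 ratios of 0.38 (adjusted p = 0.0935, edgeR) and 0.31 (adjusted p = 0.122). In KO, 5 members were called (13.2% of all genes), and Fosb was not, with 0.52 (adjusted p = 0.0882). Whether a ratio differed between genotypes is the test of the difference given above, which no member passed. In WT, the call of Fos was lost without pool 1 or 2 (adjusted p = 0.112 and 0.106) and that of Fosb without pool 2 or 3 (0.0937 and 0.247). In KO, Fos was lost without pool 2 or 4 (0.0535 and 0.110), Fosl2 without pool 3 or 4 (0.219 and 0.0573), and Jund without pool 2 or 4 (0.347 and 0.212). The log2 ratios behind these lost calls were 0.58 and 0.67 for Fos and 0.64 and 0.57 for Fosb in WT, where all pools gave 0.76 and 0.62. In KO they were 0.62 and 0.60 for Fos, 0.24 and 0.53 for Fosl2 and 0.22 and 0.33 for Jund, where all pools gave 0.70, 0.45 and 0.35. Jun and Junb were called in both genotypes without any 1 pool.

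**Figure D4:**
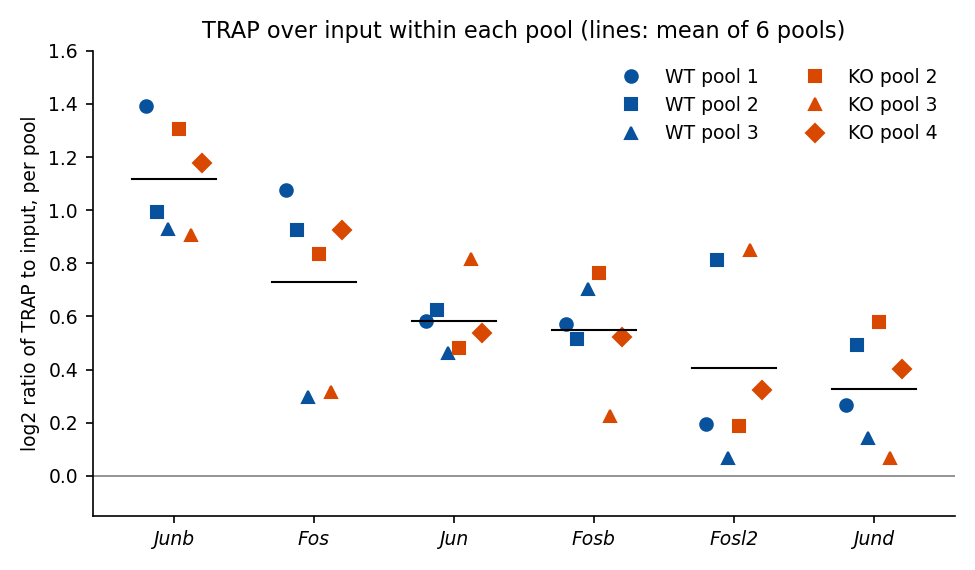
Log2 ratio of TRAP to input (vertical axis) within each of the 6 pools for 6 AP-1 genes, with lines for the mean of 6 pools. All 36 points lie above 0, Junb highest at 0.91 to 1.39.

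Atf3 and Fosl1 were the members with the lowest counts. Atf3 (ENSMUSG00000026628.8), a stress-induced partner of Jun proteins, had 38, 5 and 11 counts in WT TRAP, 8, 3 and 6 in KO TRAP, then 1, 0 and 1 in WT input, and 3, 9 and 1 in KO input. WT TRAP 1 was far above all others, and KO pool 3 had more counts in input than in TRAP. No fold or test is given, because WT input lay under the floor and Atf3 could pass a filter only through the TRAP libraries where it is high. Fosl1 (ENSMUSG00000024912.5), which encodes Fra-1, had 0 counts in all 12 libraries, which allows up to 0.534 to 0.878 CPM. Of its 1707 exon bases, 1162 overlap the antisense gene Ccdc85b, which had 228 to 393 counts. The strand setting of the counting is not given in the sources used here, and without strand, reads on the shared bases would have been set aside as ambiguous. A low level of Fosl1 could therefore have been missed.

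Between pools of the same group, some members varied together and others went opposite ways. The measure was each library's deviation from its group mean on the log2(CPM + 0.5) scale, over 12 libraries that come from only 6 pools, and it is given as a description. Over the 12 libraries, 8 of the 15 pairs of members had a positive and 7 a negative Pearson's r. Fos and Junb varied together, with Pearson's r = 0.78 over 12 libraries, 0.89 within TRAP and 0.70 within input (6 libraries each). Without KO pool 2 it was 0.71, and without the 2 libraries farthest from the median of Fos 0.87. Jun and Fosl2 also went together, at r = 0.88 over all, 0.95 within TRAP, 0.75 within input and 0.85 without KO pool 2. Jun and Fosb went opposite ways, at r = -0.89 over all, -0.99 within TRAP, -0.71 within input and -0.83 without KO pool 2. WT TRAP 2 and KO TRAP 3 had the lowest Fosb and the highest Jun of their groups, and WT TRAP 1 and KO TRAP 2 the highest Fosb and the lowest Jun. Fosb and Junb went together within TRAP, at r = 0.93, but not within input, at r = -0.35. The value over all was 0.48, and -0.04 without KO pool 2. Fosb with Fosl2 was at r = -0.73 over all, -0.96 within TRAP and -0.16 within input. In the same order, Fos with Fosb was at 0.62, 0.94 and 0.25, and Fos with Jun at -0.51, -0.91 and -0.11. Without KO pool 2, these pairs were at -0.67, 0.46 and -0.34 over all.

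**Figure D5:**
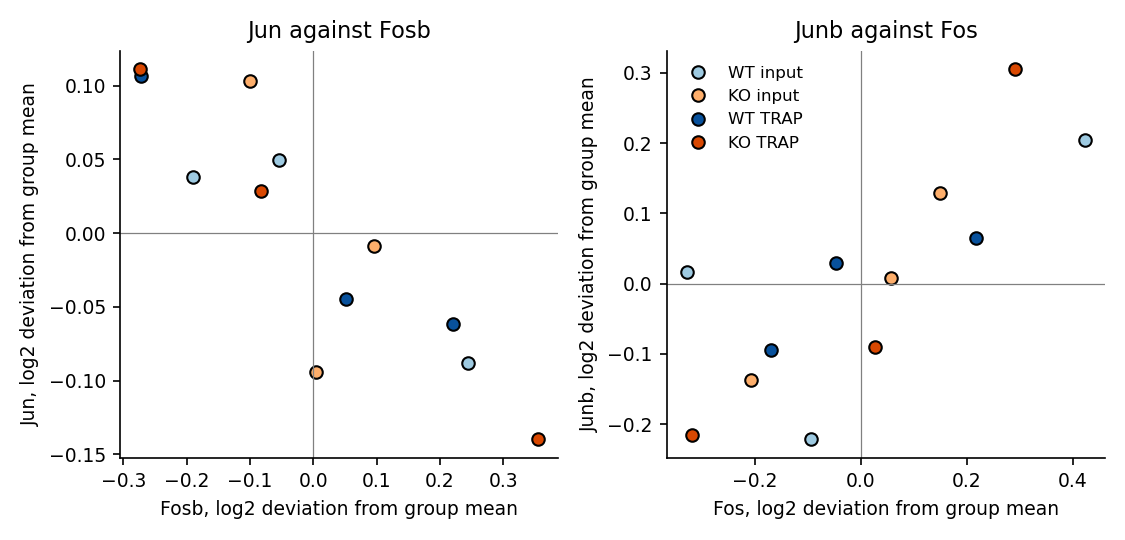
Log2 deviation of each library from its group mean for Jun against Fosb (left) and Junb against Fos (right), with 12 libraries coloured by group. Jun is lower where Fosb is higher (r = -0.89), and Junb is higher where Fos is (r = 0.78).

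By the same measure, the most similar of 12332 genes were found for each member. For Fos they were Kcnk2, Epsti1 and Dnmbp, with r of 0.94 to 0.97 over 12 libraries. Junb was closest to Vwa3a, Gatad2a and Vat1 (r of 0.93 to 0.94), and Fosb to 6530418L21Rik, Sorcs1 and Galnt13 (0.94 to 0.96). Jun was closest to Prrt1, Stox1 and Gpd1 (0.92 to 0.95), Fosl2 to Doc2b, Rundc3a and Ppp5c (0.92 to 0.95) and Jund to Gtf3a, Tdrkh and Hist1h2ac (0.93 to 0.97). No member was among the 3 most similar genes of another member, and by rank Junb was 76 of 12332 for Fos, Fos 128 for Junb, Fosl2 22 for Jun and Jun 7 for Fosl2. The highest of so many correlations over so few pools are high by selection.

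Promoters are shown for the 5 members of the pairs above that varied together or apart, as the 250 bases before the start in RefSeq on GRCm38.p6, which is another build than that of the counts. The table held 7 of the 8 members. On both strands, the letters TGACTCA (the AP-1 site), TGACGTCA (the full CREB site), TGACATCA (the site of c-Jun with ATF-2), TGACG (the shorter CREB site, also part of TGACGTCA) and TATAAA were searched. Matches are in capitals.
Fos, chr12:85473640-85473889, plus strand: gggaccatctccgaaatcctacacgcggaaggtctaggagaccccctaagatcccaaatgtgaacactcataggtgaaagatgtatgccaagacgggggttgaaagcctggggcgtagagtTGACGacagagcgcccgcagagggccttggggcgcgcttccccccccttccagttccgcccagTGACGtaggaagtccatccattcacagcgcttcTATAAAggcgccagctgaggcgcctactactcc
Fosb, chr7:19310046-19310295, minus strand: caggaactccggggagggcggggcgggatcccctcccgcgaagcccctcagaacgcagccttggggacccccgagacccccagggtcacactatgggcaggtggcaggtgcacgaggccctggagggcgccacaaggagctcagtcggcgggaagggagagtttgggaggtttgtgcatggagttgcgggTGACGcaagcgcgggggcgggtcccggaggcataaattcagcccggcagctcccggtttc
Fosl2, chr5:32136222-32136471, plus strand: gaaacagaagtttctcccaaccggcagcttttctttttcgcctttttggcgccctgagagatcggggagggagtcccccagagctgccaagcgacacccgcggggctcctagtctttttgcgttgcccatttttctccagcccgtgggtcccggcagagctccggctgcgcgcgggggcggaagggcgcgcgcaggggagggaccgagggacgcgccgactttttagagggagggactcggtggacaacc
Jun, chr4:95052223-95052472, minus strand: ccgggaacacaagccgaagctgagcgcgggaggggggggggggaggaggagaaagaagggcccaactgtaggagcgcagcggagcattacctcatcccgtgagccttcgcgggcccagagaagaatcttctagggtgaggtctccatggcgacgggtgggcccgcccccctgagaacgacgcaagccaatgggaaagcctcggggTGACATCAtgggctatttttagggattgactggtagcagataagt
Junb, chr8:84978749-84978998, minus strand: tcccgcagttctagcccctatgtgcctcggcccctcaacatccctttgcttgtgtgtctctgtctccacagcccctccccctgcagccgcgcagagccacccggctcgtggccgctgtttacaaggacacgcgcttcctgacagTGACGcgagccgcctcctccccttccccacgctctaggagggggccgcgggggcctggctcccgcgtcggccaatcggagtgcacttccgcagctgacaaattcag
TGACG was found in Fos at 129 and 66 bases before the start, in Fosb at 60, in Junb at 106 and in Atf3 at 7, where it lies on the opposite strand, beside 17.8% of 32851 promoters of the same length. Fos, which also had TATAAA at 33, held it 2 times. Jun held TGACATCA at 45, which 2.93% of promoters hold. TATAAA is held by 12.4% of promoters, TGACTCA by 4.46% and TGACGTCA by 1.55%, and the last 2 were in none of the 7 member promoters. Fosl2 and Jund had no match in this window. A match is a description of letters and not evidence of binding.

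Genes that pair with, drive or switch off AP-1 were taken as 4 lists. None of their members was called between KO and WT in TRAP or input. Of all genes, 0.0341% were called lower and 0.0341% higher in TRAP, and 0.0234% and 0.0078% in input, so no call says little. By unadjusted p under 0.05 in edgeR, 1 phosphatase or turnover gene passed in TRAP (6.05% of all genes). In input, 1 leucine zipper partner did (2.89%). Between TRAP and input over both genotypes, their directions were mixed, beside 20.1% of all genes called higher and 22.7% called lower. Of 13 leucine zipper partners, 8 were tested, 0 were higher and 4 were lower, with a median log2 ratio of -0.33. They included Maf (-2.61), Atf7 (-0.97) and Atf4 (-0.48). Of 16 transcription factors and coactivators that act on Fos and Jun promoters, 4 were higher and 6 were lower, with a median of -0.16. Among the lower ones, Elk3 could pass the filter only through input libraries. Crtc1, a CREB coactivator that enters the nucleus with activity, was highest (log2 ratio 0.85, SE 0.07, adjusted p = 4.53e-11, edgeR), while Creb1 itself was at -0.40 (SE 0.10, adjusted p = 0.00122). The SRF coactivators Mkl2 and Mkl1 were higher (0.32 and 0.24), as was Mef2d (0.27), and the acetyltransferases Crebbp and Ep300 were lower (-0.60 and -0.55), as was the SRF partner Elk4 (-0.89).

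Of 16 kinases upstream of AP-1, 6 were higher in TRAP and 2 were lower, with a median log2 ratio of 0.17. They included Map2k1, a MAP kinase kinase (0.50), Map2k7, a kinase of JNK (0.41), and Mapk10 (JNK3, 0.26), and the RSK kinase genes were mixed, with Rps6ka1 and Rps6ka3 lower (-0.97 and -0.48) and Rps6ka2, named after its value was seen, higher (0.26). Of 10 phosphatases and turnover factors, 4 were higher and 3 were lower, with a median of 0.20. The higher ones were the MAP kinase phosphatases Dusp5 (0.85), Dusp1 (0.60) and Dusp6 (0.51) and the ubiquitin ligase subunit Fbxw7 (0.35). The lower ones were Zfp36l2 (-2.57), Zfp36l1 (-2.39) and Zfp36, which encode proteins that mark AU-rich mRNA for decay. Zfp36 could pass the filter only through the input libraries where it is high, so no fold is given for it.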

How the data were processed

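TRAP and input RNA of vHPC was sequenced from 6 pools of mice. A label without the word input was read as TRAP, and the methods state 3 to 4 mice per pool. The authors deposited raw counts per gene and library, from reads mapped to mm9 (TopHat) and assigned to Gencode vM1 genes (HTSeq-count), without multiply aligned reads. Versions and the strand setting are not given in the sources used here. The submitters' methods name DESeq2.

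Groups were compared with edgeR 4.0.16 (quasi-likelihood test with robust dispersion, TMM, filterByExpr by group), with Benjamini-Hochberg adjustment over all genes tested and a call at an adjusted p under 0.05. Exact permutation tests used log2(CPM + 0.5). The SE is the log2 fold change over the square root of F. Levels per kb used the union of exons. Steps were tested on simulated data. Stretches of exons, taken every 5 bases, were aligned with minimap2 and counted as shared at up to 2 mismatches. Libraries of 1 group had identical counts for 0.805% to 1.99% of genes. P-values of KO against WT measure the spread between pools. Where TRAP was set against input, the main fits took TRAP and input of a pool as independent libraries, and the sign-flip test used pools.

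TRAP and input of 1 pool come from the same mice and were paired in an alternative (their deviations correlated at 0.06 to 0.12 across genes). Alternatives were RLE, total counts, no filter, a mean of at least 10 counts, DESeq2 1.42.0, no mitochondrial genome genes, 12 libraries in 1 fit, a replicate block and each pool left out. The members and lists were chosen with earlier results of these data known. Named were all members, called genes of the lists (at most 4 with the smallest p per direction) and the 3 genes most like each member among those with a mean of at least 10 counts. Some items under this rule are not reported here.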

Additional observations from a re-analysis of the deposited data

How the results depend on the processing

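The counts of AP-1 members called were 0 between KO and WT in TRAP, in input and for the difference between them under every alternative run. The 6 members called for TRAP over input over both genotypes were called under all of them. Leaving out a pool gave 2 to 4 of the 6 called for TRAP against input in KO and 2 to 3 in WT. Atf3, which entered some fits through the TRAP libraries where it is high, is left out of these counts. Over all genes, the 8 called between KO and WT in TRAP became 41 with no expression filter and 18 with DESeq2, and 5 to 20 with a pool left out. The 4 called in input became 19 with no filter, 8 with DESeq2, 7 in the fit of 12 libraries and 20 with the replicate block, and 1 to 5 with a pool left out. TRAP against input gave 1289 to 3243 called genes in WT and 1982 to 3181 in KO with a pool left out, and the difference between genotypes 0 to 1. In KO, DESeq2 gave an adjusted p of 0.0547 for Jund in TRAP against input.

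Log2 fold changes near 0 changed sign, and none of these was called. With the replicate block, which joins different mice between genotypes, KO against WT in TRAP was -0.12 for Fosl2, -0.0413 for Jun and -0.60 for Fosb, and in input -0.0286 for Junb. With total counts, Junb in input was -0.0079 and the difference between TRAP and input was 0.0037 for Fos. With a pool left out, KO against WT in TRAP ran from -0.0194 to 0.29 for Fos, -0.10 to 0.20 for Fosl2, -0.0455 to 0.0751 for Jun and -0.11 to 0.16 for Junb. In input it ran from -0.18 to 0.0152 for Fosl2 and -0.0913 to 0.11 for Junb. The difference between TRAP and input ran from -0.32 to 0.13 for Fos, -0.25 to 0.0437 for Fosb, -0.12 to 0.34 for Fosl2, -0.056 to 0.10 for Jun, -0.068 to 0.15 for Junb and -0.0778 to 0.18 for Jund. The cause was not tested. The block of TRAP and input from the same pool changed no call of a member. Pools number 3 per genotype, Atf3 had 0 to 38 counts and Fosl1 had 0 in all libraries, which limits what can be said of them.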
